A study of Homo sapiens with 2 samples.

Results

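The S100 genes described here are S100A2, S100A3, S100A4, S100A6, S100A10, S100A11, S100A13, S100A14, S100A16 and S100P, 10 of the 24462 gene symbols in the count tables. They were chosen by name as members of the S100 family and with the RT-R to parental ratios of these same libraries already known, so their ratios are given as a description. The data are messenger RNA counts from 2 human cell cultures. RT-R-MDA-MB-231 (RT-R) is a radiotherapy-resistant line made from MDA-MB-231 by repeated X-ray doses of 2 Gy that added up to 50 Gy, and MDA-MB-231 (parental) is the established triple negative breast cancer line it came from. Both were grown in RPMI medium with fetal bovine serum and antibiotics, and whether RT-R is 1 clone or a mixed population is not given in the sources used here. Each line had 1 library, made with a QuantSeq kit that reads mainly the 3' ends of polyadenylated transcripts. With a single library per line, no difference below could be checked against replicates, and no p-values were computed.

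S100 proteins are small calcium sensors. Each chain carries a pair of EF-hands, the helix-loop-helix motif that binds calcium, and most work as dimers that expose a binding face for other proteins when calcium rises. They have no enzyme activity and act through partners such as annexins, myosin and p53, and some are released from cells and act on receptors such as RAGE. The S100A genes sit in one cluster on chromosome 1, in the region that also holds the epidermal differentiation genes, while S100P lies on chromosome 4. In breast cancer S100A4 is known for its link to cell motility and metastasis.

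The RT-R library held 10014804 counts over 17598 detected symbols and the parental library 9255008 counts over 16631. Library sizes were adjusted by TMM, the trimmed mean of M-values, and levels are given as CPM, scaled counts for every 1000000 counts of the library. A 3' tag library gives about 1 read per transcript end whatever the length, so levels were compared between genes without a length correction. The labelled cell type was checked against defining genes. ESR1 (estrogen receptor) had 1 RT-R count and 0 parental counts, PGR (progesterone receptor) had 0 in both, and ERBB2 (HER2) had 174 RT-R and 230 parental counts. The mesenchymal filament gene VIM had 8454 RT-R and 4310 parental counts, and the leukocyte gene PTPRC had 0 in both. Of other genes known to be present in this line, CD44 had 3129 RT-R and 2560 parental counts. KRT18 had 2816 RT-R and 2525 parental counts, and EGFR 749 RT-R and 444 parental counts. The fibroblast gene COL1A1 had 76 RT-R and 59 parental counts. PECAM1, an endothelial adhesion gene, had 50 RT-R and 223 parental counts, 4.97-fold lower in RT-R. Its part in the results was not tested.

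The main S100 pattern was lower expression in RT-R of a run of neighbouring genes, deepest at S100A4, with S100P going the other way. S100A4 was 8.65-fold lower, S100A2 2.61-fold and S100A3 2.502-fold, and S100P was 3.18-fold higher. Reads shared with S100A4 could enter the S100A3 ratio, as set out below, and this was not tested. S100A6, the most abundant gene of the whole parental library, was 1.77-fold lower. S100A10, S100A11, S100A13 and S100A16 were 1.27-fold to 1.49-fold lower. S100A14 was close to the detection limit in both libraries.

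The promoters of the 4 genes called higher or lower (S100A4, S100A2, S100A3, S100P) by the rule in the next paragraph are printed here with those of S100A6 and S100A10, which are abundant and differed less, because their CG content is compared with the ratios further on. The sequences are from RefSeq and run from 250 bases before to 50 after the annotated start, 5' to 3' on the gene's strand. The capitals mark each CG dinucleotide, the site of DNA methylation in human cells. S100A6 and S100A10 are the only 2 of the 10 above the median CG count of measured protein-coding genes, 27. S100A16 was also not called, has 3 and is not printed, so the printed set does not stand for all uncalled genes.
S100A4 promoter, GRCh38.p14 chr1:153545757-153546056, minus strand: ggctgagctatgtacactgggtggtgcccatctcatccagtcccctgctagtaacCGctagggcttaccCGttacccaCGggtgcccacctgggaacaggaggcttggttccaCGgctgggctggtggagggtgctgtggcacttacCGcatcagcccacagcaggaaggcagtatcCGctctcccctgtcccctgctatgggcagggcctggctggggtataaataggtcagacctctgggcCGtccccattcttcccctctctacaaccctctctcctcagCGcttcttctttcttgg
S100A2 promoter, GRCh38.p14 chr1:153565795-153566094, minus strand: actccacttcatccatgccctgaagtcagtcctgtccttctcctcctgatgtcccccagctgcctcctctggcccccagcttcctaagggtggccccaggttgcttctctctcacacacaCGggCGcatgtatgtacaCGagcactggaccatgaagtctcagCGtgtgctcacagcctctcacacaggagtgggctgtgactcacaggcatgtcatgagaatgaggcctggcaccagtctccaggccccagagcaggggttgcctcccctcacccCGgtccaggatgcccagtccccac
S100A3 promoter, GRCh38.p14 chr1:153549209-153549508, minus strand: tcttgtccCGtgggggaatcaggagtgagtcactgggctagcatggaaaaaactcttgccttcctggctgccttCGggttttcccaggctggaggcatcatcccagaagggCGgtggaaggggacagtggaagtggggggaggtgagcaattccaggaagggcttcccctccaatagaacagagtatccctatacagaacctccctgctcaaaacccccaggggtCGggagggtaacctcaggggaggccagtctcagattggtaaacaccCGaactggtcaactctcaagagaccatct
S100P promoter, GRCh38.p14 chr4:6693628-6693927, plus strand: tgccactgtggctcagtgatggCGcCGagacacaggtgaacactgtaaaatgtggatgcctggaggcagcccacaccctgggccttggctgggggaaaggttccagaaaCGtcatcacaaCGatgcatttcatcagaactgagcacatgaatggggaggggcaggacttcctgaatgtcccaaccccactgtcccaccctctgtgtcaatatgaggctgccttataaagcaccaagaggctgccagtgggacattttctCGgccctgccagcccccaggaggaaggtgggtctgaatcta
S100A6 promoter, GRCh38.p14 chr1:153535942-153536241, minus strand: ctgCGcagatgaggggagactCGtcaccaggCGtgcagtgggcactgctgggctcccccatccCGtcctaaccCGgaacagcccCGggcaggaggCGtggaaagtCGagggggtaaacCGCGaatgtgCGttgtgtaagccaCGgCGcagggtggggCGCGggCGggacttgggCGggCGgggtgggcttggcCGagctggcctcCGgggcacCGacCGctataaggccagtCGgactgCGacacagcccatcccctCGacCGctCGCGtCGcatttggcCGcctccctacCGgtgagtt
S100A10 promoter, GRCh38.p14 chr1:151993810-151994109, minus strand: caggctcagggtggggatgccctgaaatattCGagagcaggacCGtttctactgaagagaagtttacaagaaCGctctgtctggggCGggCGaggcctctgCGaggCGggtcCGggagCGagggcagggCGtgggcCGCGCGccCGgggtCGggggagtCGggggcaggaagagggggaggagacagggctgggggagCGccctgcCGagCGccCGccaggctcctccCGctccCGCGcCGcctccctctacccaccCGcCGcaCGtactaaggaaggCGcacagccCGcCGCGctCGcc

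The rule for calling a difference asked for 20 or more counts in either library, a 2-fold or larger ratio in either direction, and a 95% counting interval that left out equal expression. Of the 10 genes, 9 passed the count minimum, 3 were called lower (S100A2, S100A3, S100A4) and 1 higher (S100P). Over all 12644 genes measured by the same rule, 3.97% were called lower and 6.89% higher. The median log2 ratio of RT-R to parental was -0.57 over the 9 measured S100 genes and -0.013 over all measured genes, and 8 of the 9 ratios were below equal expression. Since the genes were picked with this contrast known, nothing further is read from these counts.

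**Figure D1:**
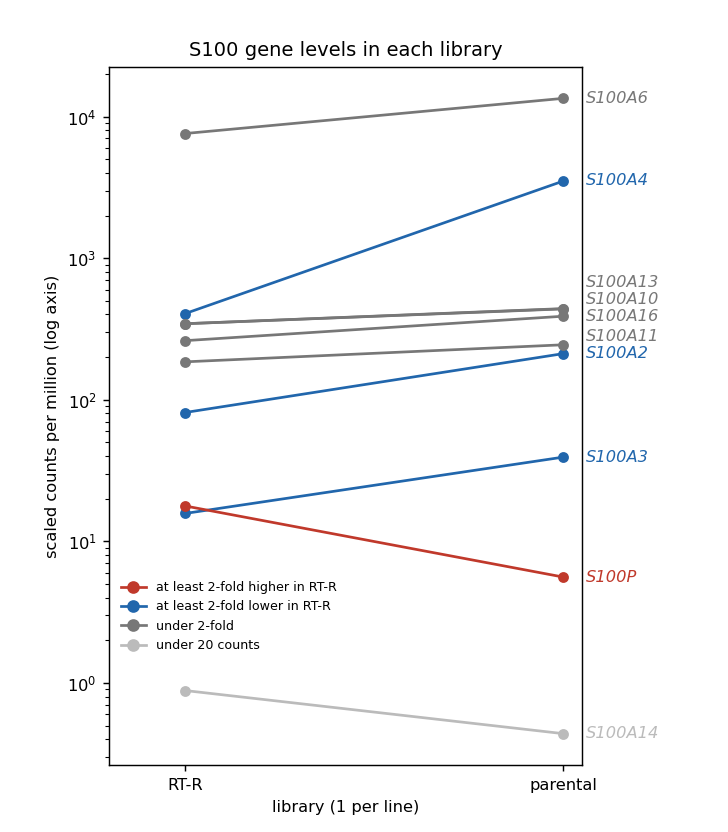
Levels of the 10 S100 genes in CPM (log axis) in the RT-R library (left) and the parental library (right), 1 library each, joined by a line per gene. S100A4 shows the steepest line, at 405 CPM in RT-R against 3506 CPM in parental cells, and S100P slopes the other way.

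S100A4 encodes metastasin, which binds non-muscle myosin IIA and loosens its filaments. It had 4122 counts in RT-R and 31964 in parental cells, or 405 CPM against 3506 CPM. The ratio was 8.65-fold lower in RT-R with a counting interval of 8.37 to 8.94, and the log2 ratio was -3.11. This moved the gene to place 370 among all symbols by count in RT-R, against place 15 in parental cells. Only 67 of the 12644 measured genes, 0.53%, were called at least 4-fold lower, and S100A4 had the 19th lowest log2 ratio of all. Among the 15 genes with at least as many parental counts as S100A4, itself included, the next lowest log2 ratio was -1.12 and the median was -0.25. No gene with a lower ratio than S100A4 had as many parental counts. Both comparisons were cut at the S100A4 count in the library where it is high, so they describe the gene and test nothing.

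S100A6 encodes calcyclin, a widely expressed S100 protein that binds CACYBP and several annexins. It had 77083 counts in RT-R and 122528 in parental cells, or 7582 CPM against 13441 CPM. It ranked 3rd of all symbols by count in RT-R and 1st in parental cells. The ratio was 1.77-fold lower (1.76 to 1.79), which is short of the 2-fold limit although the counting interval is narrow. The difference in CPM was thus larger for S100A6 than for S100A4, and the ratio smaller.

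S100A2, a mainly nuclear S100 protein known to bind p53, had 826 counts in RT-R and 1931 in parental cells. That is 81.2 CPM against 212 CPM, 2.61-fold lower (2.40 to 2.83). S100A3, a cysteine-rich protein best known from the hair cuticle, had 160 counts in RT-R and 359 in parental cells. That is 15.7 CPM against 39.4 CPM, 2.502-fold lower (2.07 to 3.03). The ratios of S100A2 and S100A3 lie within each other's counting intervals, although their levels differ widely.

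S100A10, also called p11, has lost calcium binding and pairs with annexin A2 at the cell membrane. It had 3499 counts in RT-R and 3994 in parental cells, 1.27-fold lower (1.22 to 1.33). S100A11, which binds annexin A1, had 1883 counts in RT-R and 2229 in parental cells, 1.32-fold lower (1.24 to 1.40). Both intervals exclude equal expression, but the log2 ratios of -0.35 and -0.40 are close to 0.34, the median size of log2 ratio over all measured genes. S100A13, which takes part in the release of FGF1 and interleukin-1 alpha, had 3500 counts in RT-R and 4014 in parental cells, 1.28-fold lower (1.22 to 1.34). S100A16, a widely expressed member, had 2657 counts in RT-R and 3546 in parental cells, 1.49-fold lower (1.42 to 1.57). None of these 4 genes reached 2-fold.

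S100P, first found in placenta, binds the membrane linker ezrin and can act outside the cell through RAGE. It had 181 counts in RT-R and 51 in parental cells, or 17.8 CPM against 5.59 CPM. The ratio was 3.18-fold higher in RT-R (2.32 to 4.43). S100P was the only one of the 10 called higher, and it is the one that lies outside the chromosome 1 cluster. S100A14, an epithelial S100 gene, had 9 counts in RT-R and 4 in parental cells. Its interval, from 0.563 to 8.97 times the parental level, covers equal expression, so a difference was not detectable at this depth.

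**Figure D2:**
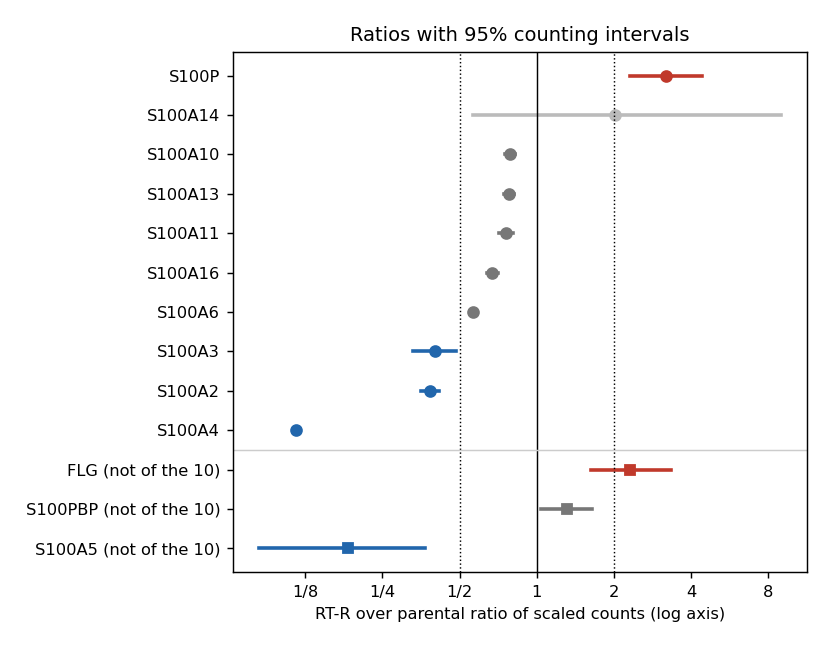
Ratio of scaled counts, RT-R over parental (log axis), for the 10 S100 genes and, under the grey line, for the other measured S100-related genes. Bars are 95% counting intervals, dotted lines mark 2-fold, blue is called lower, red is called higher, and light grey is under 20 counts. S100A4 and S100A5 lie farthest to the left and S100P farthest to the right.

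The order of levels within the family was nearly the same in both lines. In RT-R it ran S100A6, S100A4, S100A13, S100A10, S100A16, S100A11, S100A2, S100P, S100A3 and S100A14. In parental cells it was the same except that S100A3 stood above S100P. S100A13 and S100A10 did not differ beyond counting error in either library (344.2 and 344.1 CPM in RT-R, 440 and 438 CPM in parental cells), nor did S100P and S100A3 in RT-R. All other neighbours in the order had exact Poisson intervals that did not overlap. The gaps between members did change. S100A6 had 18.7 counts for each S100A4 count in RT-R and 3.83 in parental cells, a comparison within a library that does not depend on scaling.

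Together the 10 genes took 0.938% of all counts in RT-R and 1.84% in parental cells. Their summed counts were 93920 in RT-R and 170620 in parental cells, 2.03-fold lower (2.01 to 2.04). S100A6 made up 82.1% of the sum in RT-R and 71.8% in parental cells, and S100A4 made up 4.39% in RT-R and 18.7% in parental cells. Without S100A6 the sum was 16837 counts in RT-R and 48092 in parental cells, 3.19-fold lower (3.13 to 3.24). The sum of S100A10, S100A11, S100A13 and S100A16 was 11539 counts in RT-R and 13783 in parental cells, 1.33-fold lower (1.30 to 1.37). The lower family total thus lay mainly in S100A6 and S100A4.

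The S100 genes outside the 10 added little signal apart from S100A5. The calprotectin genes S100A8 and S100A9, known from neutrophils, had 0 counts in both libraries, as did S100A12, S100A7A, S100A7L2 and the glial gene S100B. A count of 0 allows up to 3 counts, or 0.295 CPM in RT-R and 0.329 CPM in parental cells. S100A1 had 0 RT-R counts and 1 parental count, and the psoriasin gene S100A7 had 1 RT-R count and 0 parental counts. S100G had 1 RT-R and 4 parental counts, and S100Z had 5 RT-R and 0 parental counts. These values are too low for a comparison. S100A5 had 10 counts in RT-R and 49 in parental cells, 5.46-fold lower (2.73 to 12.1). S100A5 overlaps S100A4 in the RefSeq gene table, so reads could have been shared between them, and their part in the S100A5 ratio was not tested. In the GENCODE annotation a longer S100A4 gene model also spans S100A3, so reads could have been shared there too. Their part in the S100A3 ratio was not tested. S100PBP, whose product binds S100P but is no S100 protein, had 191 RT-R and 131 parental counts, a ratio of 1.31 (1.04 to 1.65).

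Fused-type S100 genes join an S100 domain to a long repeat and belong to the skin barrier. FLG, the filaggrin gene, had 116 counts in RT-R and 45 in parental cells, 2.31-fold higher (1.62 to 3.34). An antisense gene, FLG-AS1, had 37 RT-R and 46 parental counts, and reads of such a pair cannot be told apart where strand was not used. TCHH had 12 RT-R and 2 parental counts, and HRNR had 5 RT-R counts and 1 parental count. FLG2 had 0 RT-R and 3 parental counts, CRNN had 0 RT-R counts and 1 parental count, and RPTN and TCHHL1 had 0 in both.

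Along chromosome 1 the low ratios were centred on S100A4. In the RefSeq order the genes S100A6, S100A5, S100A4, S100A3 and S100A2 follow one another with no other measured gene between them. Their log2 ratios were -0.83, -2.39, -3.11, -1.32 and -1.38. S100A16 and S100A13 come next, at -0.57 and -0.35. On the other side, past the epidermal differentiation genes, S100A11 and S100A10 had -0.40 and -0.35. The ratios were thus nearer to 0 on both sides of S100A4. Reads shared with S100A4 could enter the ratios of S100A5 and S100A3, so these may not be separate values. That was not tested.

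The 42 measured genes around and inside the cluster that are not S100A genes showed no such dip. They were the 20 nearest on each side and 2 inside, FLG and FLG-AS1. None of the 42 was called lower and 4 were called higher, with 3.97% and 6.89% over all measured genes. For so short a list these counts are near those shares and are not a result about the neighbours. Their median log2 ratio was 0.094, and their lowest was -0.77, at SELENBP1. The ratios of S100A10, S100A11, S100A13 and S100A16 were above that lowest value but below the median. These S100 genes thus lay within the range of the neighbours, in its lower part. S100A16, at -0.57, was near the lower end, where SEMA6C had -0.66 at 33 RT-R and 47 parental counts. The 4 higher genes were CRTC2, a CREB coactivator (589 RT-R and 192 parental counts, 2.75-fold), FLG, the tight junction gene CGN (43 RT-R and 18 parental counts, 2.14-fold) and the interleukin-6 receptor gene IL6R (210 RT-R and 89 parental counts, 2.12-fold). CHTOP, the first gene past S100A13, overlaps it in the RefSeq table and had 1096 RT-R and 779 parental counts, a ratio of 1.26 (1.15 to 1.39), in the opposite direction to S100A13. When the median of the 30 nearest measured genes that are not S100 genes was subtracted, the log2 ratio of S100A4 was -3.15 and that of S100A6 was -0.87.

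**Figure D3:**
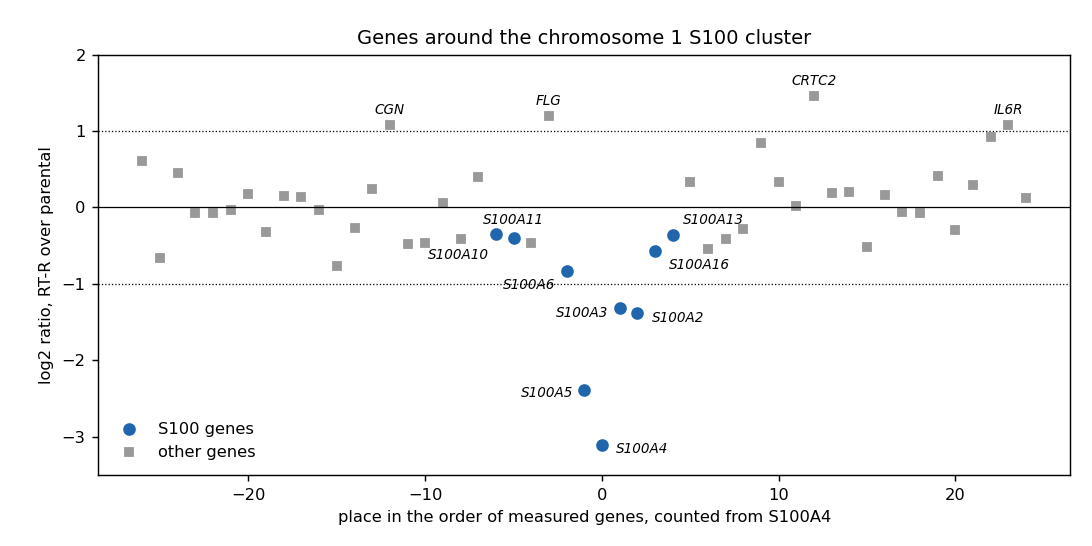
Log2 ratio of RT-R to parental for measured genes in their order along chromosome 1, counted from S100A4 at 0. Blue circles are S100 genes, grey squares are other genes, and dotted lines mark 2-fold. The S100 genes nearest to S100A4 form a dip that reaches -3.11, while the other genes stay between -0.77 and 1.46. S100A10, S100A11, S100A13 and S100A16 lie within that range.

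The promoter windows were compared with the ratios. All 10 genes matched the RefSeq promoter table, and the first window listed was used where a gene has several. The 4 called genes had few CG dinucleotides, 8 in S100A4 and 5 each in S100A2, S100A3 and S100P. This depends on the 2-fold limit, because at 1.5-fold S100A6, with 31, was called lower as well. Of the 5 measured genes that were not called, S100A10 had 32, S100A6 31, S100A11 22 and S100A13 19, against 3 in S100A16. S100A13 has 3 windows in the table with 11 to 19 CG dinucleotides, and S100A16 has 2 with 3 to 8, so for S100A13 the gap to the called genes is smaller by its other windows. S100A14, which was hardly detected, had 5. The median over 9635 measured protein-coding genes with a window was 27. Of the 5129 such genes at or under that median, 6.999% were called higher and 4.74% lower. Of the 4506 genes above it, 5.13% were called higher and 2.55% lower. Calls were thus more frequent among all genes with few CG dinucleotides, and the S100 genes were not tested against them.

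**Figure D4:**
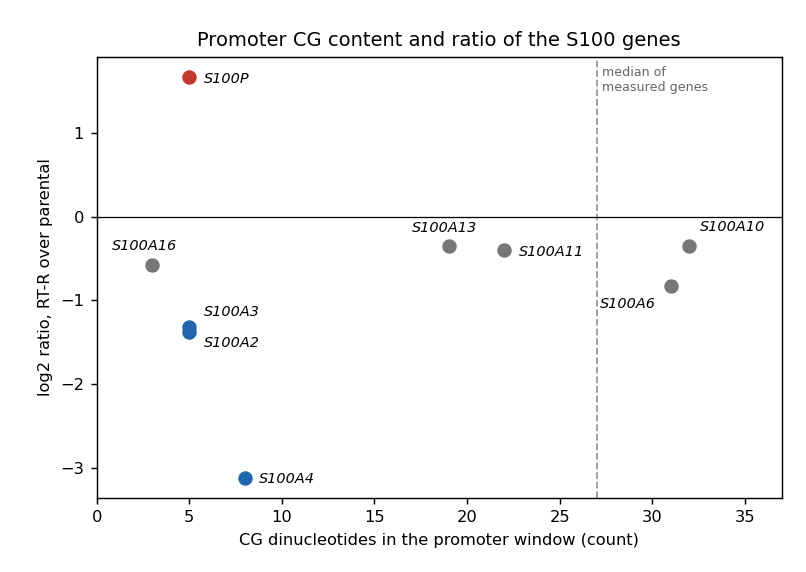
Number of CG dinucleotides in the promoter window against the log2 ratio of RT-R to parental for the 9 measured S100 genes. The dashed line is the median CG count of measured protein-coding genes, 27. The called genes (blue lower, red higher) have 5 to 8 CG dinucleotides and the uncalled ones (grey) 3 to 32.

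Both strands of each window were also searched for a pair of textbook motifs that do not overlap one another. TATAAA, the core of the TATA box, was found in S100A4, where it begins at -31 from the start, and in S100P, where it begins at -28. It is held by 11.95% of 27305 RefSeq promoter windows and by 5.29% of those of measured protein-coding genes. TGACTCA, the site of AP-1 factors, was found in S100A2 at -52 and, on the reverse strand, in S100A3 at -225. It is held by 4.92% of all windows and 2.95% of those of measured protein-coding genes. Neither motif was found in the windows of the other 6 genes. Only exact matches were sought, and the S100A6 window holds TATAAG, which differs from TATAAA in its last base. S100A4 and S100P, which share TATAAA, had ratios in opposite directions.

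Genes for known partners and receptors of S100 proteins are given next. Of 33 listed genes, 27 were measured, 0 were called higher and 1 was called lower, beside 6.89% higher and 3.97% lower over all measured genes. A single lower gene among 27 is close to that share and is not a result about the list. The median log2 ratio was -0.036. The lower gene was PLAT, tissue plasminogen activator, which binds S100A10 (641 RT-R and 1211 parental counts, 2.11-fold lower, 1.91 to 2.32). ANXA2, the annexin that pairs with S100A10, had 9762 RT-R and 6137 parental counts, a ratio of 1.43 (1.38 to 1.47). AHNAK, the scaffold bound by that pair, had 5292 RT-R and 3279 parental counts, a ratio of 1.45 (1.38 to 1.51). Both thus lay higher in RT-R while S100A10 itself lay lower, all short of 2-fold. The myosin heavy chain gene MYH9, the main partner of S100A4, had 4475 RT-R and 3488 parental counts, a ratio of 1.15 (1.10 to 1.20). Its relative MYH10 had the highest ratio of the list, 1.73 (1.498 to 2.01), with 536 RT-R and 277 parental counts. CACYBP, the partner of S100A6, was 1.15-fold lower (1.073 to 1.22), and EZR, the ezrin gene, was 1.23-fold lower (1.16 to 1.30) where S100P was higher. The RAGE gene AGER had 19 RT-R and 16 parental counts, under the minimum.

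Other EF-hand genes served as a comparison with calcium-binding proteins outside the family. Of 33 listed, 28 were measured, 2 were called higher and 1 lower, close to the 6.89% higher and 3.97% lower over all measured genes. The median log2 ratio was -0.13. The higher genes were TESC (37 RT-R and 14 parental counts, 2.37-fold, 1.25 to 4.74) and RCN3, a reticulocalbin (35 RT-R and 14 parental counts, 2.24-fold, 1.18 to 4.51). The centrin gene CETN2 was lower (169 RT-R and 335 parental counts, 2.21-fold, 1.83 to 2.68). CETN2 had the lowest log2 ratio of the list, -1.14, against -3.11 for S100A4.

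**Figure D5:**
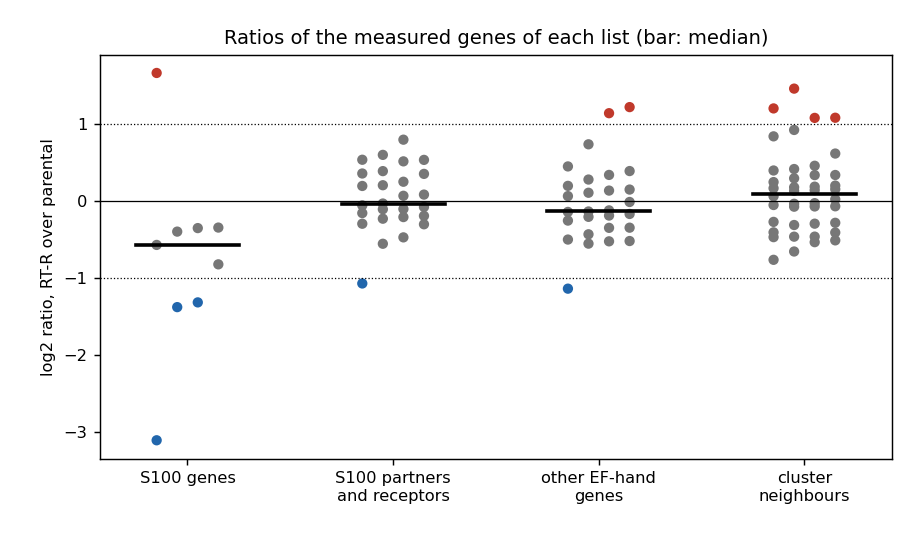
Log2 ratio of RT-R to parental for the measured genes of each list, with red called higher, blue called lower, grey not called, and a black bar at the median. The 9 measured S100 genes, chosen with these ratios known, lie between -3.11 and 1.66, and the partners and receptors between -1.075 and 0.79.

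Genes with the ratio most like that of S100A4, S100A2 and S100P were sought among protein-coding genes outside the family with at least 0.5 times that gene's summed counts. With 2 libraries the measure of likeness is the distance between log2 ratios alone. For S100A4, 113 genes qualified and all 113 had higher ratios, the nearest being PLP2 at -1.39, PRICKLE3 at -1.39 and RPS4X at -1.12. That cut rests mainly on the parental counts of S100A4, so this too is a description. PLP2 and PRICKLE3 overlap in the RefSeq table and had nearly equal counts (6309 and 6334 in RT-R, 14801 and 14849 in parental cells). The same reads may thus have been counted for both, so they should not be taken as separate genes here. That was not tested. The cuts for S100A2 and S100P likewise rest mainly on the library where each gene is high, and describe only. Over all 12644 measured genes S100A2 had the 201st lowest log2 ratio and S100P the 12265th lowest, so the cuts make both look more extreme. Among 2864 genes for S100A2, 8 had lower ratios, and the nearest were PRICKLE3, PLP2 and MCTS1 (-1.35). Among 9811 genes for S100P, 119 had higher ratios, and the nearest were the chemokine gene CXCL2 (769 RT-R and 218 parental counts), NMNAT2 (694 RT-R and 197 parental) and the proteoglycan gene SRGN (1555 RT-R and 443 parental), with log2 ratios of 1.66, 1.66 and 1.65.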

How the data were processed

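For each of the 2 libraries the authors deposited whole-number counts by gene symbol, not normalized. The submitters' processing notes name the hg19 build, bcl2fastq 2.20.0.422, bedtools and Bowtie2. What each tool did, which annotation was used and whether strand was used is not given in the sources used here, so overlapping genes are uncertain. The intervals cover counting error only and take each read as independent. No molecular identifiers are mentioned, so repeated reads of one molecule could not be removed and the intervals may be too narrow.

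Repeated symbols were summed, which took 25737 rows to 24462 symbols. TMM scaling in edgeR 4.0.16 (R 4.3.3), its only use here, gave a size ratio of 1.12 between RT-R and parental. A pseudocount of 0.5 was added to scaled counts for log2 ratios. Fold ratios have none, and carry exact conditional (Clopper-Pearson) 95% intervals from scipy 1.17.1. A count of 0 was taken to allow 3 counts. The order of genes came from the RefSeq table of GRCh38.p14, where 98.6% of measured genes were found by symbol or unambiguous synonym. The notes name another build, hg19, so coordinates are printed for the RefSeq promoter windows alone. A window was found for 82.5% of 11678 measured protein-coding genes. The calculations were also run on simulated libraries with Poisson counts, the model that the intervals assume. That checks the code and says nothing on variation between real libraries.

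The 10 genes and all lists were chosen with earlier results of these data known. The genes named are all measured S100-related genes, the called genes of each list (at most 4 in each direction), and otherwise the highest and lowest. The other partner and EF-hand genes, SELENBP1 and CHTOP were named after their values were seen. Other settings tried were 3 further scalings (total counts, upper quartile, and DESeq2 1.42.0 size factors), a pseudocount of 5, a minimum of 0 or 100 counts, a limit of 1.5-fold or 4-fold, calls without the interval, the largest row of a repeated symbol, and subtraction of chromosomal neighbours.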

Additional observations from a re-analysis of the deposited data

How the results depend on the processing

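The log2 ratio of each of the 10 S100 genes kept its sign under every scaling, with a pseudocount of 5, with the largest row of a repeated symbol and, for the 9 measured genes, after subtraction of chromosomal neighbours. Over these alternatives S100A4 ranged from -3.15 to -3.07, S100A6 from -0.87 to -0.78, S100A2 from -1.42 to -1.34, S100A3 from -1.36 to -1.28 and S100P from 1.58 to 1.89. The log2 ratio of the sum of the 10 genes was -1.02, against -0.98 by the upper quartile and -0.98 by total counts, a shift that follows from the size ratios. At 4-fold, 1 S100 gene (S100A4) was called lower and 0 higher, 0 partner genes were called lower, and 0 cluster neighbours were called higher. At 1.5-fold, 4 S100 genes were called lower, S100A6 being the added one, 2 partner genes were called higher and 1 cluster neighbour lower. The counts of other EF-hand genes and of all genes were recomputed by a choice made after seeing the data. With a minimum of 100 counts, 0 other EF-hand genes were called higher, and over all genes 356 were called higher and 265 lower. At 4-fold, 0 other EF-hand genes were called higher and 0 lower, and over all genes 292 were called higher and 67 lower. At 1.5-fold, 1734 of all genes were called higher and 1501 lower. The remaining counts of these 5 lists (S100 genes, partners, neighbours, other EF-hand genes, all genes) stayed within 1.5 times the reported ones. No paired analysis was possible because each line has 1 library and the results come from no test. Depth limits S100A14, S100A5 and the S100 genes at or near 0 counts. Variation between cultures was not measured.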
